A study of Mus musculus with 2 samples.

Results

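The SIBLING cluster (small integrin-binding ligand, N-linked glycoproteins) is a group of 5 genes for acidic phosphoproteins of bone and tooth matrix, Dspp, Dmp1, Ibsp, Mepe and Spp1, which lie side by side on mouse chromosome 5. The members were taken by name from the GENCODE M21 annotation (GRCm38), 5 of its 21938 protein-coding genes, by a rule that itself uses no measured value. All 5 are on the plus strand, and from the start of Dspp to the end of Spp1 they span chr5:104170712-104441050, a distance of 270.3 kb. The 50 kb on either side were included, which gave a region of 370.3 kb with 7602 CG cytosines and 1421 bins of 200 bp that hold a CG.

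SIBLING proteins are secreted by osteoblasts, osteocytes and odontoblasts, bind the calcium of hydroxyapatite through stretches of acidic residues and phosphoserines, and attach to cells through an RGD sequence that integrins recognise. Some promote the growth of mineral crystals and others restrain it, depending on phosphorylation and on cleavage into peptides. CG methylation at promoters and enhancers is generally low where these elements are active, and TET enzymes oxidise 5mC to 5hmC and on towards unmethylated cytosine.

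WGBS was done on primary osteoblasts from 3-day-old C57BL/6 mice after 3 days of culture. The WT library came from wild-type mice. The TCKO library came from mice that combined Prx1-Cre with floxed alleles of Tet1, Tet2 and Tet3. Prx1-Cre is active in limb bud and part of the calvarial mesenchyme. The sources used here name the control only as wild type, so whether it carried floxed alleles without Cre is not known. There was 1 library per genotype, so a p-value speaks of these libraries and not of the genotypes, and intervals cover counting error only. Bisulfite treatment reads 5mC and 5hmC alike as methylated, and a level is the share of methylated calls over all cells, so a partial level cannot be told apart from a mixture of methylated and unmethylated cells.

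The WT library had 53194 calls in the region (6.997 per CG cytosine) and the TCKO library 45197 (5.95), a ratio of 0.850 that was close to the ratio over all nuclear chromosomes (0.856). The lowest exon of each deleted gene with at least 50 WT calls went from 62 to 1 call in Tet1, from 180 to 50 in Tet2 and from 85 to 26 in Tet3. These were picked for the lowest ratio of TCKO to WT calls, 0.0161, 0.278 and 0.306. The highest ratios of an exon were 1.04 in Tet1, 1.64 in Tet2 and 0.893 in Tet3. In WT the promoters of 6 osteoblast markers had a median level of 17.4% (lowest to highest 0.613% to 71.9%). The median was 78.4% for 3 haematopoietic (58.6% to 87.7%), 64.9% for 3 endothelial (49.5% to 78.5%) and 77.7% for 3 adipocyte markers (51.6% to 77.8%). For 3 skeletal muscle markers it was 32.1% (10.3% to 65.2%), but for 3 chondrocyte markers only 9.12% (6.49% to 61.0%). The osteoblast range, with Bglap the highest, overlapped all the others. Of the osteoblast markers only the Col1a2 promoter was called higher in TCKO and of the others only Tek, an endothelial gene. The part of other cell types in the results was not tested.

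The sequences below are the ones the results turn on, read from GRCm38, plus strand, 5′ to 3′, with each CpG in capitals. The first 3 are upstream of Dmp1 (chr5:104201813-104202112), Ibsp (chr5:104298671-104298870) and Spp1 (chr5:104434918-104435117, ending at the base before the TSS). The next is the stretch between Mepe and Spp1 with the largest rise there (chr5:104408201-104408400). The last 2 remained low in TCKO, from the stretch behind Mepe (chr5:104340022-104340321) and from an intron of Mepe (chr5:104333279-104333578).
Dmp1 upstream: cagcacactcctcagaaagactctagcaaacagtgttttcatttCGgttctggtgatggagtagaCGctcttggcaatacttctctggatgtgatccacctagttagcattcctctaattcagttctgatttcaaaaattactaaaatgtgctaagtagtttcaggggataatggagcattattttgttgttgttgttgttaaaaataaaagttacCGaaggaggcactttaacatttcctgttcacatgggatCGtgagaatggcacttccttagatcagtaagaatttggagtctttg
Ibsp upstream: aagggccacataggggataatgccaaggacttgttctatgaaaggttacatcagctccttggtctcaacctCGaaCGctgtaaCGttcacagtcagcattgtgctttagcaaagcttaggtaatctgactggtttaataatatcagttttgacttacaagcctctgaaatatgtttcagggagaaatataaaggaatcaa
Spp1 upstream: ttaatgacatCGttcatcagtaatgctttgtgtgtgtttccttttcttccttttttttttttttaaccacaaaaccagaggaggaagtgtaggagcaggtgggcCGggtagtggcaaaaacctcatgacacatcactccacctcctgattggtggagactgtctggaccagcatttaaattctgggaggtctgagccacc
Mepe to Spp1, large rise: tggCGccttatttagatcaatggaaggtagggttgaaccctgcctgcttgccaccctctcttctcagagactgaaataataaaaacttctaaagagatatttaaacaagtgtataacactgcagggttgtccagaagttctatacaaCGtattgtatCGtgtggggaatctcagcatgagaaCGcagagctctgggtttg
Mepe to Spp1, low in both: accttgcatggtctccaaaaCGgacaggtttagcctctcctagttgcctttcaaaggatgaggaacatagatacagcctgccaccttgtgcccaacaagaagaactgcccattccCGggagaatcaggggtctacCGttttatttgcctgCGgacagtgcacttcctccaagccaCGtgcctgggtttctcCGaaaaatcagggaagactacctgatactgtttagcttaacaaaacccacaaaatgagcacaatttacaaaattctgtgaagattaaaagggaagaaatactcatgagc
Mepe intron, low in both: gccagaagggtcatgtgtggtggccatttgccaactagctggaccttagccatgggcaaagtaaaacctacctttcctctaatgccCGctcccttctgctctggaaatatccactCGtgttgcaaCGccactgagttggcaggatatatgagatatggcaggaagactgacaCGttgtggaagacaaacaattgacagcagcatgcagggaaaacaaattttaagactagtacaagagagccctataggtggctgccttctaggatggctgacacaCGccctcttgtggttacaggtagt

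Across the cluster CG methylation was 72.9% in WT (28605 of 39259 calls, 95% Wilson interval 72.4% to 73.3%) and 83.5% in TCKO (27316 of 32706 calls, 83.1% to 83.9%). The difference of 10.7 percentage points (95% Newcombe interval 10.1 to 11.3) lay above that of chromosome 5 as a whole (6.15 points) and of the autosomes (6.23 points). It was not even along the cluster. Dspp differed least, by 1.69 points with an interval that includes 0 (-1.27 to 4.59), and the 22.5 kb between Dspp and Dmp1 by 4.39 points (2.44 to 6.33). Dmp1 differed by 13.02 points, Ibsp by 11.8 points, the 13.9 kb between Ibsp and Mepe by 10.97 points and Spp1 by 9.22 points. The largest differences were those of Mepe (15.1 points, 12.1 to 17.98) and of the 96.5 kb from Mepe to Spp1, which went from 69.5% to 84.3% (14.8 points, 13.8 to 15.8). The 85.1 kb between Dmp1 and Ibsp, a gap of similar length, differed by 7.53 points (6.42 to 8.63), and its interval did not overlap that of the Mepe to Spp1 gap. The flanks differed by 10.4 points before the cluster and 9.23 points after it.

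**Figure D1:**
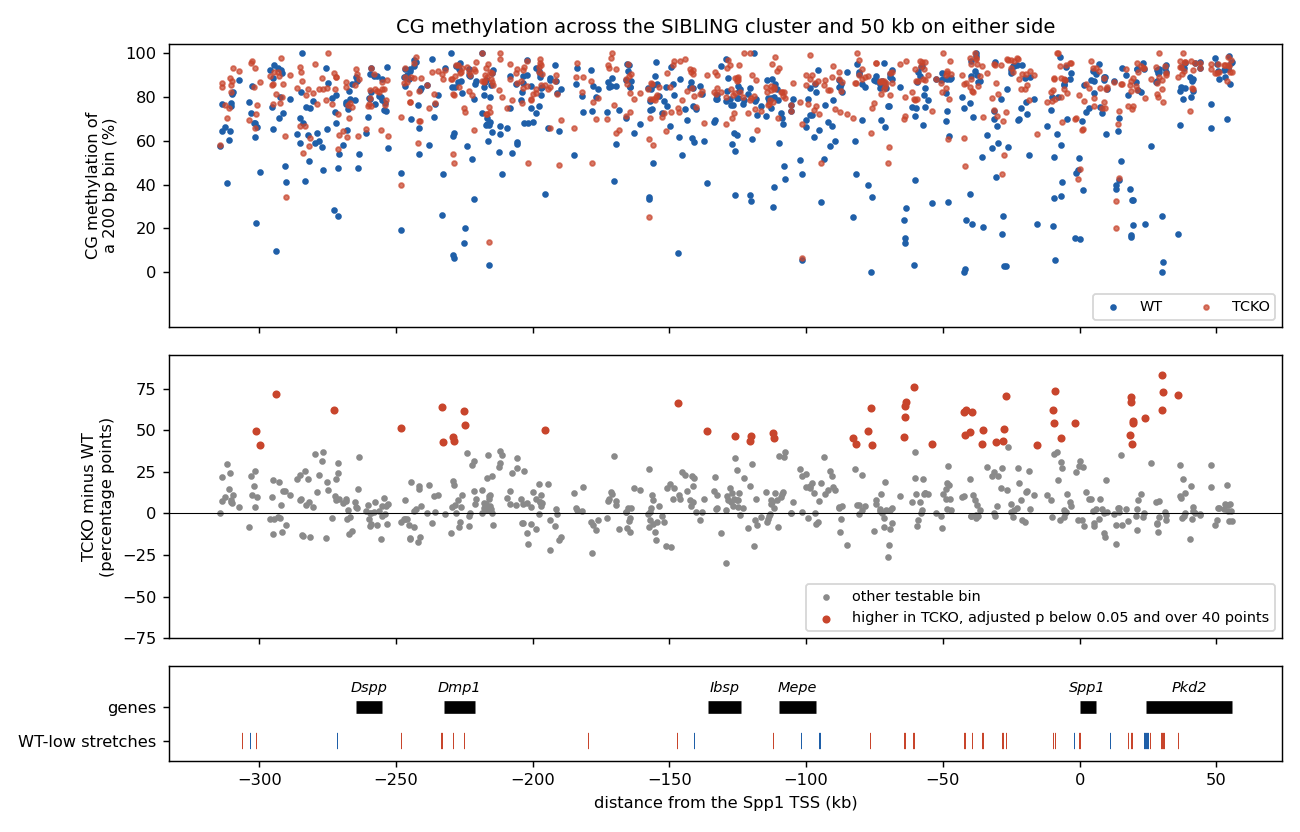
CG methylation of the 582 testable 200 bp bins (top, in percent) and TCKO minus WT (middle, in percentage points) against distance from the Spp1 TSS in kb, with genes and WT-low stretches below. In the lowest panel stretches over 40 points higher in TCKO are red and the others blue. Red bins in the middle panel, 58 in all, are frequent between Mepe and Spp1 and absent from the bodies of Dspp, Mepe and Spp1.

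Promoters, taken as 1 kb on either side of the TSS, were compared by 2-sided Fisher exact tests, adjusted by Benjamini-Hochberg across the 21693 protein-coding genes with enough calls, and called higher at an adjusted p below 0.05 and a difference above 20 points. Of the 5 members 2 were called, Dmp1 and Ibsp, where 4.92% of all promoters were. All 5 had the higher level in TCKO, and 66.7% of all promoters rose by 0.581 points or more. The median difference of the 5 was 18.3 points where the median over all promoters was 3.00 points.

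Dmp1 (dentin matrix protein, made by osteocytes and odontoblasts, whose loss raises FGF23 and lowers serum phosphate) had a promoter level of 50.9% in WT (117 of 230 calls, 44.4% to 57.3%) and 87.3% in TCKO (131 of 150 calls, 81.1% to 91.7%). The difference was 36.5 points (27.5 to 44.3, Fisher exact test, adjusted p = 5.39e-12), and 0.502% of all promoters rose by as much or more. The widest change lay upstream: between -1000 and -500 bp WT had 10 methylated calls of 72 and TCKO 51 of 58. In the printed Dmp1 sequence the CpG at -756 bp from the TSS had 0 of 10 methylated calls in WT and 4 of 4 in TCKO, that at -735 bp 0 of 10 and 3 of 4, that at -584 bp 7 of 21 and 18 of 20, and that at -546 bp 3 of 17 and 19 of 21. From -500 bp to 1000 bp past the TSS, the level was already 67.7% in WT and reached 87.0% in TCKO. The difference there was 19.2 points (8.44 to 28.6). Within this window the bin chr5:104202201-104202400, before the TSS, went from 45.0% of 40 calls to 88.0% of 25. All 6 CpGs of the upstream stretch were thus higher in TCKO, while those at 469 bp (18 of 19 and 16 of 17) and 554 bp (8 of 9 in both) were methylated in both libraries.

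Ibsp (bone sialoprotein, a nucleator of hydroxyapatite) had a promoter level of 45.6% in WT (115 of 252 calls, 39.6% to 51.8%) and 84.6% in TCKO (143 of 169 calls, 78.4% to 89.3%). The difference was 39.0 points (30.2 to 46.6, Fisher exact test, adjusted p = 3.38e-14), the largest of the 5 members, and 0.387% of all promoters rose by as much or more. The 3 CpGs of the printed Ibsp sequence stand within a few bases of each other, and single reads can cover all of them. At -429 bp WT had 8 of 18 methylated calls and TCKO 16 of 16, at -425 bp 6 of 18 and 16 of 16, and at -417 bp 3 of 18 and 15 of 17. Past the TSS, up to 600 bp, the level went from 32.4% (23 of 71 calls) to 84.2% (32 of 38 calls). Of 16 CpGs with calls in both libraries around the Ibsp TSS, 15 were higher in TCKO, the exception being the one at -762 bp (18 of 22 and 10 of 14).

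**Figure D2:**
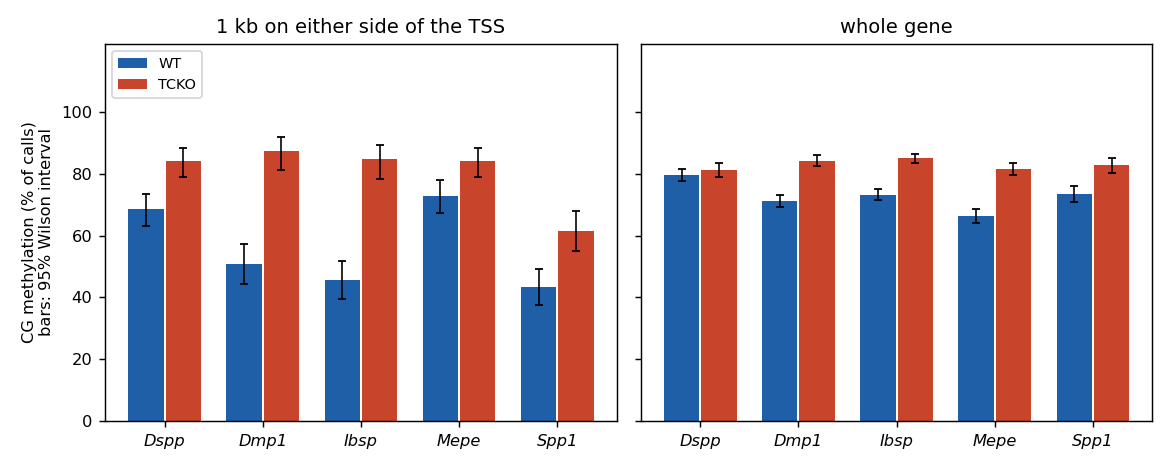
CG methylation in percent of calls in WT (blue) and TCKO (red) for the promoters (left) and whole genes (right) of the 5 members, with 95% Wilson intervals. Dmp1 and Ibsp promoters show the widest gaps, from 50.9% to 87.3% and from 45.6% to 84.6%, while the Spp1 promoter ends lowest in TCKO at 61.6%.

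Spp1 (osteopontin, which binds mineral and restrains its growth and binds integrins and CD44) had the lowest promoter level of the members in both libraries, 43.3% in WT (125 of 289 calls, 37.7% to 49.0%) and 61.6% in TCKO (133 of 216 calls, 54.9% to 67.8%). The difference of 18.3 points (9.53 to 26.7, Fisher exact test, adjusted p = 5.42e-04) passed the test but not the 20 points of a call. Its parts differed in direction. In a window from -100 to 200 bp around the TSS, chosen after the single CpGs were seen, WT had 0 methylated calls of 55, which allows a level of up to 5.45% by a floor of 3 calls (95% Wilson upper limit 6.53%), and TCKO had 18 of 27 (66.7%, 47.8% to 81.4%). The 5 CpGs in it went from 0 of 13 to 3 of 5 calls at -96 bp, from 0 of 6 to 2 of 2 at 48 bp, from 0 of 7 to 3 of 3 at 61 bp, from 0 of 13 to 4 of 7 at 160 bp and from 0 of 16 to 6 of 10 at 179 bp. Further upstream, from -1000 to -100 bp, the level was 59.0% in WT and 66.0% in TCKO, a difference of 6.96 points with an interval from -5.95 to 19.4. In the first intron the CpGs at 944 bp (24 of 28 and 19 of 30) and 960 bp (18 of 28 and 15 of 29) had lower values in TCKO. The first intron as a whole was higher in TCKO, from 39.5% of 162 calls to 60.6% of 132 (21.1 points, 9.62 to 31.8). With plus strand calls alone the promoter difference turned to -10.7 points (66.7% of 78 calls and 56.0% of 84, Fisher exact test, adjusted p = 0.436). With minus strand calls alone it was 30.6 points (34.6% of 211 calls and 65.2% of 132, Fisher exact test, adjusted p = 2.37e-06). The pooled Spp1 value thus joined strands whose values differed in direction, and why they did was not tested.

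**Figure D3:**
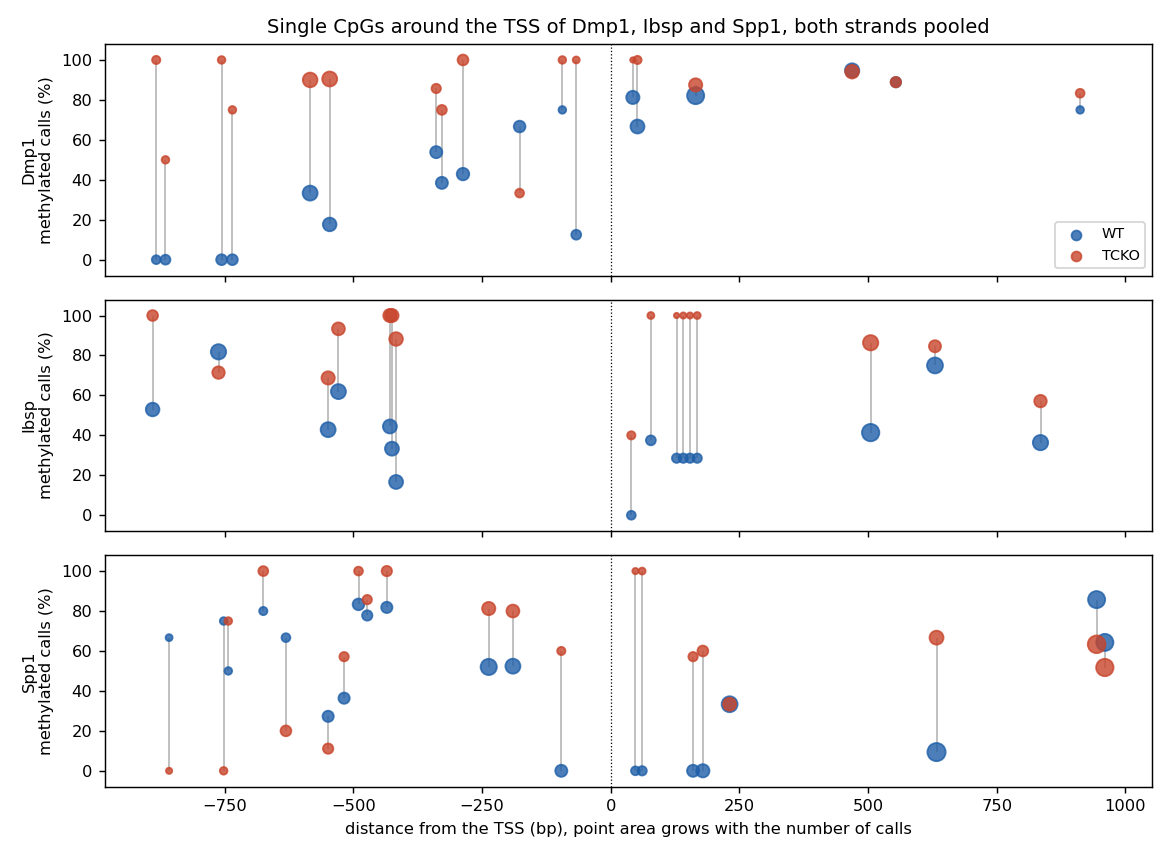
Share of methylated calls at single CpGs, both strands pooled, in WT (blue) and TCKO (red) against distance from the TSS in bp for Dmp1, Ibsp and Spp1, with point area growing with the number of calls. Around the Spp1 TSS 5 neighbouring CpGs are at 0 in WT and at 57.1% to 100% in TCKO on 2 to 10 calls, while at 944 and 960 bp TCKO is below WT.

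Dspp (cleaved to dentin sialoprotein and dentin phosphoprotein, and made mainly by odontoblasts) and Mepe (an osteocyte glycoprotein whose ASARM peptide inhibits mineralisation) had the highest WT promoter levels of the members. Dspp went from 68.5% (202 of 295 calls) to 84.2% (202 of 240 calls), 15.7 points (8.49 to 22.5, Fisher exact test, adjusted p = 3.54e-04). Mepe went from 72.9% (194 of 266 calls) to 84.2% (203 of 241 calls), 11.3 points (4.14 to 18.2, Fisher exact test, adjusted p = 0.0136). Neither was called, and no CpG around either TSS had 0 methylated calls in WT. In Dspp the difference was wider past the TSS (59.6% and 81.7%) than upstream of it (76.1% and 86.3%), with the deepest CpGs at 796 bp (13 of 28 and 14 of 16) and 837 bp (17 of 33 and 23 of 26). In Mepe both sides differed alike, by 11.3 points upstream and 11.2 points downstream, and the clearest single CpGs were those at -12 bp (9 of 20 and 13 of 13) and 38 bp (8 of 15 and 9 of 9). In TCKO the promoters of Dspp, Dmp1, Ibsp and Mepe ended between 84.2% and 87.3%, with overlapping intervals, and only that of Spp1 lay apart.

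Over whole genes, called at an adjusted p below 0.05 and above 10 points, 3 of the 5 members were higher in TCKO, where 14.8% of 21625 gene bodies were, and the median over all gene bodies was 5.66 points. Mepe went from 66.4% to 81.5% (Fisher exact test, adjusted p = 1.85e-22), Ibsp from 73.3% to 85.0% (6.44e-21) and Dmp1 from 71.2% to 84.3% (1.29e-19). Spp1 went from 73.5% to 82.7% and missed the size of a call (Fisher exact test, adjusted p = 2.499e-06), and Dspp from 79.6% to 81.3% did not pass the test (0.338). Introns differed more than exons in Dspp, Dmp1 and Mepe, with intervals that do not overlap only in Dmp1. The exons of Dspp, the last of which codes for the phosphoserine-rich dentin phosphoprotein, were at 84.9% in WT and 84.4% in TCKO (-0.510 points), while its introns went from 65.0% to 73.6%. The exons of Dmp1 differed by 6.01 points and its introns by 17.7 points, so Dmp1 was not called on exons alone. Within Dmp1, where single introns were looked at after their values were seen, intron 5 (chr5:104210147-104211639) went from 36.6% of 238 calls to 81.7% of 153, whereas intron 3 (chr5:104207638-104209897) was at 86.9% and 91.0%. In Ibsp, exons and introns differed by 11.6 and 11.98 points, in Mepe by 12.3 and 15.7 points, and in Spp1 by 9.60 and 8.17 points.

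A 200 bp bin was testable if it held 4 or more CG cytosines, read on average 4 or more times each in WT and in TCKO, and a hyper-CG-DMR bin was one over 40 points higher in TCKO at an adjusted p below 0.05. Of 582 testable bins in the region 58 were such bins (9.97%), where 2.86% of the 2534629 testable bins of the genome were, and 0 were lower by the same rule. In the genome 886 bins were lower by that rule. Most of the 43 hyper bins of the cluster lay outside the genes, as did most of its 431 testable bins. The gap from Mepe to Spp1 held 28 of them among 153 testable bins (18.3%), while the gap from Dmp1 to Ibsp held 3 among 126 (2.38%). In the gene bodies Dmp1 held 4 of 24 and Ibsp 1 of 23, and Dspp, Mepe and Spp1 held 0 of 17, 0 of 19 and 0 of 10. Around the Spp1 TSS the bin chr5:104435201-104435400 had the depth to be tested and went from 15.1% of 53 calls to 46.9% of 32 (Fisher exact test, adjusted p = 0.0369), which is under the 40 points.

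Bins were also grouped by their WT level. Where WT was below 20%, the 25 bins of the region had a median difference of 61.5 points, with quartiles of 47.2 and 70.3, and those of the genome 23.7 points, with quartiles of 3.67 and 53.9. Where WT was between 20% and 40%, the medians were 46.6 points in 40 bins of the region and 26.0 points in the genome. At WT levels of 80% and more the 267 bins of the region had a median of 0.494 points and those of the genome 0.848 points. The region and the genome thus lay far apart in bins of low WT level and close together in bins that WT had methylated already. These groups were not matched for CpG density, and its part in the contrast was not tested. The WT level is part of the difference in these groups, so they are given with no test.

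**Figure D4:**
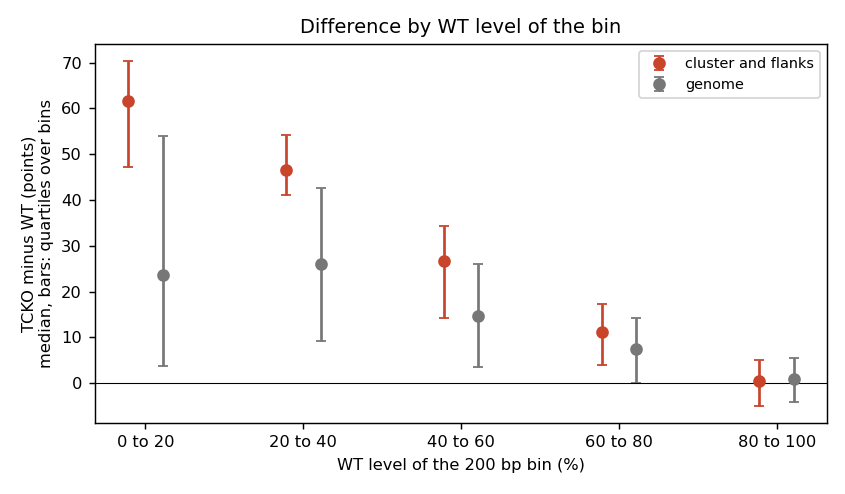
Median TCKO minus WT in percentage points, with quartiles over bins as bars, against the WT level of the 200 bp bin in percent, for the cluster and flanks (red) and the genome (grey). Below 20% WT the medians are 61.5 and 23.7 points, and at 80% and more both are under 1 point.

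WT-low stretches were runs of 200 bp bins with a WT level of at most 30%, each with at least 8 WT calls, joined across at most 1 bin with fewer, and with at least 4 CG cytosines, 20 WT calls and 10 TCKO calls in all. There were 42 in the region, or 11.3 per 100 kb, where chromosome 5 had 5.99 per 100 kb. Of these, 28 lay in the cluster, and 15 of the 28 between Mepe and Spp1. The 42 stretches had a median length of 400 bp, as had those of the genome. Their median of 1.40 CpGs per 100 bp was above the density of the region as a whole (10.3 CpGs per kb). Intergenic were 33, in a region that lies mostly outside protein-coding genes. In TCKO 41 of the 42 had a higher level, where 135571 of the 150570 WT-low stretches of the genome did. Over 40 points higher were 33 of the 42 (78.6%), where 36.8% of those of the genome were. The median difference was 54.7 points in the region and 27.7 points in the genome. Among stretches under 5 CpGs per 100 bp, 80.5% of 41 in the region were over 40 points higher. In the genome 39.2% of 140877 such stretches were, and the medians were 55.1 and 30.6 points. The WT values chose the stretches and the shares carry no test. Of 323 CpGs with calls in both libraries in the 42 stretches, 210 had a higher level in TCKO and 9 a lower one, and 105 of the 323 were in the stretch over the Pkd2 promoter.

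Since calls on the other strand come from other reads, stretches were also chosen on plus strand WT calls alone and measured on minus strand calls. Of 30 such stretches in the region 16 were called higher (Fisher exact test, adjusted p below 0.05 and over 40 points, 53.3%), where 26.0% of 94262 stretches of the genome were, and 0 were called lower. All 30 had the higher level in TCKO on the minus strand, where 76233 of the 94262 of the genome did. The median difference was 41.4 points in the region and 18.6 points in the genome. On the minus strand the WT median of the 30 was 24.1% where it was 17.1% on the strand that chose them. The widest differences were at chr5:104465201-104466000, from 2 methylated calls of 80 to 92.2% of 51, and at chr5:104426001-104426600, from 0 of 23 calls to 86.4% of 22. With the strands exchanged 18 of 31 were called.

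**Figure D5:**
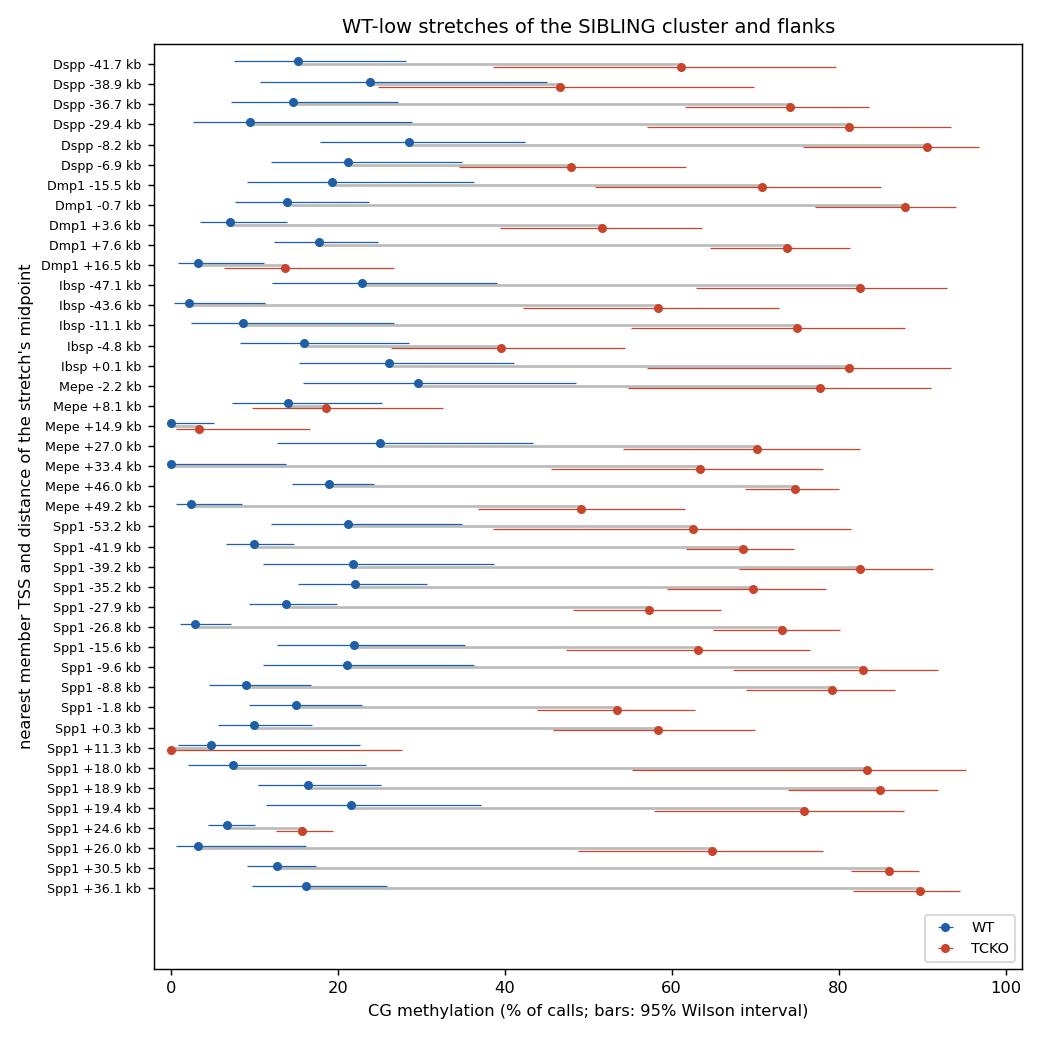
CG methylation in percent of calls, with 95% Wilson intervals, of the 42 WT-low stretches in WT (blue) and TCKO (red), in the order of the chromosome and named by the nearest member TSS and the distance of the midpoint in kb. In TCKO 33 of the 42 reach 50% or more and 5 remain under 20%.

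Within 5 kb of a member TSS lay 7 stretches, of which 5 were over 40 points higher in TCKO. The one upstream of Dmp1 (chr5:104201601-104202200), part of whose sequence is printed above, went from 13.9% of 72 calls to 87.9% of 58 (74.0 points). These are the same calls as those given above for -1000 to -500 bp of the Dmp1 promoter. Another, in intron 1 of Dmp1 (chr5:104206001-104206400), went from 7.07% of 99 calls to 51.6% of 62. Of the pair nearest Ibsp, the one over its first exon (chr5:104299201-104299400) went from 26.2% of 42 calls to 81.2% of 16, and that 4.8 kb upstream (chr5:104294201-104294600) from 8 methylated calls of 50 to 17 of 43. The stretch 2.2 kb upstream of Mepe (chr5:104323001-104323200) went from 29.6% of 27 calls to 77.8% of 18. Spp1 had a stretch over its TSS (chr5:104435001-104435800), from 9.91% of 111 calls to 58.3% of 60, and another 1.8 kb upstream (chr5:104433001-104433600), from 14.95% of 107 to 53.4% of 103. The TCKO intervals of both Spp1 stretches, 45.7% to 69.9% over the TSS and 43.8% to 62.7% upstream, lay below that of the Dmp1 upstream stretch, which begins at 77.1%, and overlapped that of the Ibsp exon stretch, which begins at 57.0%. Dspp had no WT-low stretch within 5 kb of its TSS.

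Away from the TSSs, the stretch of the gap from Mepe to Spp1 with the largest rise (chr5:104408201-104408400, 26.8 kb upstream of Spp1) was also among the deepest. It went from 2.92% of 137 calls (1.14% to 7.27%) to 73.2% of 127 calls (64.9% to 80.2%), 70.3 points apart (60.9 to 77.5). Its 4 CpGs, in capitals above, went from 1 of 12 to 7 of 11, from 0 of 39 to 26 of 37, from 0 of 39 to 25 of 38 and from 3 of 47 to 35 of 41 methylated calls. The level was alike on both strands, 2.52% and 73.7% on the plus strand and 5.56% and 69.2% on the minus strand. The longest stretch of the gap (chr5:104370801-104371800), named here after its values were seen because of its depth, went from 18.95% of 248 calls to 74.8% of 226, with all 13 CpGs higher. The other 4 of the 5 largest rises away from a TSS lay outside the genes of the cluster, at chr5:104453001-104453200 (7.41% and 83.3%, 27 and 12 calls), chr5:104471001-104471400 (16.2% and 89.8%), chr5:104465001-104466200 (12.7% and 86.0%) and, before Dspp, chr5:104141201-104141400 (9.52% and 81.2%).

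A few stretches stood apart by remaining low. The one behind Mepe, 14.9 kb from its TSS (chr5:104340001-104340400) had 0 methylated calls of 70 in WT, which allows up to 4.29% by the same floor (Wilson upper limit 5.20%), and 1 of 30 in TCKO (3.33%, 0.591% to 16.7%). Its 6 CpGs are those of the sequence printed above, and only the last had a methylated call in TCKO (1 of 8). The interval of its difference was -2.55 to 16.7 points. It was picked as the smallest rise of the gap from Mepe to Spp1, so its distance from the largest carries no test. In intron 2 of Mepe (chr5:104333201-104333600) the level was 14.0% of 57 calls and 18.6% of 43, 4.57 points apart (-9.78 to 20.1), and the CpG at base 277 of the printed sequence had 0 of 18 methylated calls in both libraries. Behind Spp1 (chr5:104446201-104446600) WT had 1 of 21 and TCKO 0 of 10 methylated calls, the single stretch with a lower value in TCKO, on few calls. Between Dmp1 and Ibsp (chr5:104219001-104219200) the values were 3.28% of 61 calls and 13.6% of 44. The stretch over the Pkd2 promoter in the flank made the fifth that remained under 20% in all, but its first bin (chr5:104458801-104459000) went from 21.95% to 79.4%.

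Motif letters fixed for bone factors were counted on both strands in the 87 bins of the stretches. AACCACA, the core letters of Runt-domain sites, was in 10 of the 87 (11.5%), in 4.50% of all bins of the region with a CG and in 4.74% of those of the genome. Its 10 copies lay in 9 of the 42 stretches, 2 of them in the Mepe intron that remained low. CAGCTG, an E-box, was in 11.5% (8.73% of the region, 7.78% of the genome), TGACTCA or TGAGTCA (AP-1, reverse complements of each other) in 4.60% (3.87% and 3.14%), CATTCCA (TEAD) in 3.45% (3.66% and 3.21%) and TAATTA (homeobox) in 5.75% (7.46% and 6.27%). In the 1 kb upstream of the TSS, AACCACA was found in 2 members, at -161 bp in Dmp1 and at -697 and -136 bp in Spp1, and in 19.5% of all 21938 promoters. The copy at -136 bp is in the Spp1 sequence printed above, between its 2 CpGs, which went from 11 of 21 to 12 of 15 at -190 bp and from 0 of 13 to 3 of 5 at -96 bp. A match to letters is a description and not a binding site.

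The direct repeat of GGTTCA with 3 bases between, the form to which the vitamin D receptor binds in the textbook example of osteopontin, occurred once in the region, from -758 to -744 bp of Spp1 (chr5:104434360-104434374). Of 21938 promoters 4 held it in the 1 kb upstream (0.0182%). It is printed from chr5:104434335-104434399, with both GGTTCA copies in capitals.
Spp1 direct repeat: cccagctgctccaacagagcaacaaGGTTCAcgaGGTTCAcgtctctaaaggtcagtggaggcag
The CpG between the copies, at -752 bp, had 3 of 4 methylated calls in WT and 0 of 4 in TCKO, and the one next to the repeat, at -743 bp, 2 of 4 and 3 of 4. These counts are too few to show a difference in either direction, and the repeat lay in no WT-low stretch.

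Of 27 genes for the partners of SIBLING proteins (the kinase Fam20c, proteases, regulators of mineral and phosphate, integrin and CD44 receptors, other matrix proteins and bone transcription factors) 4 had a promoter called higher in TCKO, where 4.92% of all promoters were, and 0 one called lower. The median was 6.55 points, and 3.00 points over all promoters. At any size of difference, 9 passed the test higher in TCKO and 2 lower. No share of all promoters by that rule is given here, so these counts are a description. Mgp, an inhibitor of calcification, went from 18.6% to 59.0% (Fisher exact test, adjusted p = 1.61e-31). Phex, the protease that cleaves SIBLING peptides and whose loss causes hypophosphataemia, went from 46.0% to 74.0% (5.77e-05), Col1a2, a chain of type I collagen, from 8.54% to 34.7% (1.83e-07), and Itgb5, an integrin subunit, from 18.998% to 41.2% (1.88e-08). In the other direction, Msx2, a homeobox factor, went from 26.0% to 9.33% (-16.6 points, Fisher exact test, adjusted p = 1.50e-06) and Phospho1, a phosphatase of matrix vesicles, from 24.2% to 11.9% (-12.2 points, 0.00343), both past the test but short of the 20 points of a call. Of 6 related secretory calcium-binding phosphoprotein genes outside the group, mostly of enamel, 0 were called, which 6 genes cannot set apart from the 4.92% of all promoters, with values from -3.50 to 19.9 points and a median of 4.71 points, where the SIBLING promoters ran from 11.3 to 39.0 points. The nearest to a call, named after its value was seen, was Ambn, an enamel protein, from 52.2% to 72.1% (Fisher exact test, adjusted p = 0.00150).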

How the data were processed

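WGBS data of 1 WT and 1 TCKO library were analysed, grouped by the genotype in their labels. Reads had been mapped by the authors with BSMAP 2.74 (up to 2 mismatches, 1 best hit, unique hits kept) against GRCm38. The deposited values are raw counts of methylated and of all calls, strand by strand, at every covered CG cytosine. Removal of duplicate reads is not given in the sources used here, and calls on 1 read are not independent. All deposited positions matched a CG in the GRCm38 sequence. Here calls were pooled within regions, levels carry 95% Wilson intervals and differences Newcombe intervals, and p-values are from 2-sided Fisher exact tests with Benjamini-Hochberg adjustment over all promoters, gene bodies, bins or stretches of the genome with enough calls (at least 20 in each library for genes). A test compares the 2 libraries only.

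The members, lists, motifs and rules were chosen with earlier results of these data known. Named in the text are the members, Pkd2, the stretches within 5 kb of a member TSS, the 5 others with the largest and the 3 with the smallest difference, and list genes that were called, at most 4 per list. The other genes, stretches, introns, windows around a TSS and CpGs named were chosen after their values were seen. Marker lists covered osteoblast, haematopoietic, endothelial, chondrocyte, skeletal muscle and adipocyte genes. Code was tested on simulated data. 25 alternatives were run. Python 3.11.15, numpy 2.4.6, pandas 2.3.3, numba 0.67.0, statsmodels 0.14.6 and matplotlib 3.10.9 were used, and scipy 1.17.1 to check the test. RNA-seq, ATAC-seq and 5hmC-Seal data were not analysed here.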

Additional observations from a re-analysis of the deposited data

How the results depend on the processing

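With 1 library per genotype no replicate could be left out, and the variation between animals is not measured. No paired analysis was possible because each genotype had 1 library. Of 25 values for the cluster, the counts of called members, the bins and the stretches under an alternative, 20 kept their direction and stayed within the interval or within 1.5 times the count reported. The cluster difference was 11.6 points when cytosines covered by 4 or more calls were averaged with equal weight. The 43 hyper-CG-DMR bins of the cluster became 17 of 165 with at least 8 reads per cytosine, 72 with a difference above 20 points and 13 with one above 60 points. The 23 stretches of the cluster over 40 points became 14 of 19 with a WT level of at most 20%. Fewer bins entered with at least 8 reads and fewer stretches with a WT level of at most 20%, and the other bin counts moved with their threshold. Why the cluster difference moved was not tested.

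Of 40 values of single members 34 kept their direction and their call. The Dspp and Mepe promoters passed 20 points in no setting, so their call stayed whatever the test gave. The Dspp promoter did not pass from 1 kb upstream to 100 bp downstream (Fisher exact test, adjusted p = 0.104) or on the minus strand (0.175). The Mepe promoter did not pass on the plus strand alone (Fisher exact test, adjusted p = 0.0554) or the minus strand alone (0.226). The Spp1 promoter turned to -10.7 points on the plus strand alone, and was called at 30.6 points on the minus strand alone and at 20.3 points on cytosines with at least 4 calls in each library. The Dspp gene body turned to -0.510 points on exons alone and to -0.0901 points without its first 1 kb. The Dmp1 gene body was not called on exons alone, at 6.01 points. Why these values moved was not tested. At a mean of 6.997 WT and 5.95 TCKO calls per cytosine a single CpG has a level known only coarsely, so values of single CpGs are descriptions.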

Other observations

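Pkd2, which codes for the cation channel polycystin-2, lies behind Spp1 and was the other protein-coding gene in the region. Of its promoter calls 84 of 365 were methylated in WT (23.0%) and 118 of 475 in TCKO (24.8%), which is 1.83 points apart (95% Newcombe interval -4.05 to 7.56, Fisher exact test, adjusted p = 0.764). The WT-low stretch over this promoter (chr5:104458801-104460600) was the one CpG-dense stretch of the region, with 7.28 CpGs per 100 bp where the others had at most 3.00, and went from 6.75% of 311 calls to 15.7% of 427. Most of its methylated calls were in its first bin (chr5:104458801-104459000), 18 of 21 in WT and 50 of 67 in TCKO, and this bin went from 21.95% of 82 calls to 79.4% of 63 and was a hyper-CG-DMR bin. Only 12 of its 105 CpGs with calls in both libraries had a higher level in TCKO, and 0 a lower one. In the same gene, an intronic stretch (chr5:104465001-104466200) went from 12.7% of 252 calls to 86.0% of 279, with all 27 CpGs higher, and 1 right behind the promoter (chr5:104461001-104461200) from 3.23% of 31 calls to 64.9% of 37. Over its whole body Pkd2 differed by 4.93 points and was not called.

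Repeats flagged in lower case by the reference made up at most 30.5% of any WT-low stretch of the region, where the region as a whole had 30.4%, and the median GC content of the stretches (43.9%) was close to that of the region (42.5%).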
